A study of Homo sapiens with 6 samples.

Results

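The regions described here are stretches of H3K27ac-marked chromatin that run across the start or the end of a gene. They were taken from a deposited list of 838 regions whose fold changes between JQ1 and DMSO in human myeloma cells, all below 0, are read here as less of this histone mark after JQ1. A region was counted where it contained the first or last annotated base of at least 1 RefSeq protein coding or lncRNA gene, a rule that uses positions and no measured value. It held for 422 of the 838 regions (50.4%), and the other 416 regions contained no gene boundary. H3K27ac was profiled by chromatin immunoprecipitation and sequencing in cells given 1 µM JQ1 for 72 h and in cells given the solvent DMSO, with 3 samples per treatment. Each treatment had 1 sample each of KMS-11, KMS-12 and RPMI8226, established lines from human multiple myeloma that the labels call wild type. For each region the authors' deposited table holds 1 fold change per line, read here as log2 of JQ1 over DMSO. The file writes neither the base nor which treatment is on top, and with DMSO on top the same values would mean more signal after JQ1. Because each line had 1 sample per treatment, a single value has no replicate error, and the read depth behind it is unknown.

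All 838 regions have a value below 0 in each of the 3 lines, and each was listed with the number of lines whose value lay below -0.5, which was 2 or 3. The direction of every value below is thus set by how the list was made, and regions that moved the other way are not in it. Where 3 values follow each other without names, they are for KMS-11, KMS-12 and RPMI8226 in that order. With no values per sample, the lines could not be checked against cell type markers.

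Acetylation of lysine 27 on histone H3 marks nucleosomes at active promoters and enhancers. At an active promoter the transcription start lies in a stretch poor in nucleosomes, and the acetylated nucleosomes flank it. Many mammalian promoters drive divergent transcription, with a coding gene on one side and a non-coding RNA or another coding gene on the other. BET proteins bind acetylated histones through their bromodomains and help recruit the machinery of transcription elongation, and JQ1 is a small molecule that occupies those bromodomains. Myeloma cells are malignant plasma cells, which secrete large amounts of antibody and depend on endoplasmic reticulum folding capacity.

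DNA at gene starts in the regions with the lowest mean fold changes is shown because these regions carry the strongest values of the set. Each line gives 100 bases before a tabulated RefSeq transcript start and 20 bases from the start on, in the direction of transcription, for the 11 of the 12 lowest regions with such a start. It is the annotated start of the gene in each but TRIB3, where it lies 535 bp inside the gene. Sequences and positions are from RefSeq on build GRCh38.p14. Capitals mark a match on either strand to any of the 9 motifs searched, also where the edge of the window truncates it. The windows run past the region's edge at RGS16, BHLHA15 and TBL1X. The marked ATTGG of RGS16 and CACGTG of TBL1X lie outside their regions. The motifs were the TATA box letters TATAAA, the CCAAT box, the GC box letters GGGCGG, the amino acid response letters TGATGNAA, the E-box letters CACGTG, the CREB letters TGACGTCA, the ETS letters CCGGAAG, the C/EBP letters TTNNGNAA and the ER stress element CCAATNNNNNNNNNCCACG.
TRIB3, plus strand, chr20:381195-381314: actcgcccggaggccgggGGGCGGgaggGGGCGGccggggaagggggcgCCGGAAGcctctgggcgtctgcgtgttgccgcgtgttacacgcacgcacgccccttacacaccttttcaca
CEBPB-AS1, minus strand, chr20:50192050-50192169: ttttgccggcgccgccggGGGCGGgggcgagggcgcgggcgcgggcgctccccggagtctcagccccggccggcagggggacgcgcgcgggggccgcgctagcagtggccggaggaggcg
RGS16, minus strand, chr1:182604370-182604489: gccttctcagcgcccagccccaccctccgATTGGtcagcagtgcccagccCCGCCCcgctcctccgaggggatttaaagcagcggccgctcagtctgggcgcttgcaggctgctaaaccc
LOC124903862, minus strand, chr1:17441524-17441643: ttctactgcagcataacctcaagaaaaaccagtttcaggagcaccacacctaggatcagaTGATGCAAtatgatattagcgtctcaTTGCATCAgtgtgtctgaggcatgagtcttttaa
ACTG1, minus strand, chr17:81512780-81512899: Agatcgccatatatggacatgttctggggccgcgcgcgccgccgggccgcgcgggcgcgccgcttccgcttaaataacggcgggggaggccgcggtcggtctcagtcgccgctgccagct
BHLHA15, plus strand, chr7:98211339-98211458: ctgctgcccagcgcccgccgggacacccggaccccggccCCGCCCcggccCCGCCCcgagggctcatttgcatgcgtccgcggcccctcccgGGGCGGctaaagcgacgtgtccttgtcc
TBL1X, plus strand, chrX:9463195-9463314: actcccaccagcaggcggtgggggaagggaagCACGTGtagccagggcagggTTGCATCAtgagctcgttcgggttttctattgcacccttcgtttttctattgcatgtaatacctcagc
SYTL1, plus strand, chr1:27341922-27342041: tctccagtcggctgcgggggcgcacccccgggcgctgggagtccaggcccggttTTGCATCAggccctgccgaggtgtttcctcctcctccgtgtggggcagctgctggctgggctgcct
MARVELD1, plus strand, chr10:97713630-97713749: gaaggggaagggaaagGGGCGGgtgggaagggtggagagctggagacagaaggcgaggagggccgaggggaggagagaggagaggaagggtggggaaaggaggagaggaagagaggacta
CITED2, minus strand, chr6:139374629-139374748: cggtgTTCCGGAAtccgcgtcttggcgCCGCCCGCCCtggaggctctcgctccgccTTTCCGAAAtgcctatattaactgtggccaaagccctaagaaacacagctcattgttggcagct
H2BC12, minus strand, chr6:27146839-27146958: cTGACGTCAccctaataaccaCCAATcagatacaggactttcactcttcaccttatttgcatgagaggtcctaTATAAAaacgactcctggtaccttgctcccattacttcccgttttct

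The motif TGATGNAA is the core of the element bound by ATF4 with a C/EBP partner in genes of the amino acid response, and it was found in the 300-base promoter window of 14 starts in boundary regions. The windows below add the starts not shown above whose 8 bases read TGATGCAA, or TTGCATCA from the opposite strand, with those bases in capitals. They are RefSeq sequence of GRCh38.p14, 30 bases long, and follow the strand of the gene. SLC1A4 is shown at a transcript start 920 bp inside the gene, and the others at the gene's annotated start. Promoter windows begin 250 bases upstream of a start, also where the region ends sooner. The letters at -227 in PPP1R15B and at -170 in LOC102724467 lie outside their regions, which cover 10 and 69 bp upstream of the start.
LOC102724467, minus strand of chr16, from -170 to -163 relative to the start base: ccccgcgagggTGATGCAAccttcgcatac
LOC102724467, minus strand of chr16, from -46 to -39 relative to the start base: tctgagctgtgTTGCATCAgccaacgggcc
IARS1, minus strand of chr9, from -13 to -6 relative to the start base: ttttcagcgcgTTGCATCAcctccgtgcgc
SLC1A4, plus strand of chr2, from -7 to 0 relative to the start base: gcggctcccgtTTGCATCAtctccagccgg
HERPUD1, plus strand of chr16, from -176 to -169 relative to the start base: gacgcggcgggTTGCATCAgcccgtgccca
CHAC1, plus strand of chr15, from -209 to -202 relative to the start base: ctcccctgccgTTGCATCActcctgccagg
PPP1R15B, minus strand of chr1, from -227 to -220 relative to the start base: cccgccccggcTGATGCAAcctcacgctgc
AARS1, minus strand of chr16, from -187 to -180 relative to the start base: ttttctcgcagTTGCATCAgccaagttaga

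The ER stress element, CCAAT and CCACG separated by 9 bases, is bound by ATF6 and NF-Y in genes of endoplasmic reticulum folding. It was found in the promoter windows of 4 starts in 3 boundary regions, and SERP1 and EIF2A show a single element read from opposite strands. The element of CALR lies outside its region, which covers 74 bp upstream of the start. Capitals mark the 2 ends of the element in RefSeq sequence of GRCh38.p14.
EIF2A, plus strand of chr3, from -77 to -59 relative to the start base: aaacaCCAATtcgctgtctCCACGcatga
SERP1, minus strand of chr3, from -232 to -214 relative to the start base: tcatgCGTGGagacagcgaATTGGtgttt
XBP1, minus strand of chr22, from -52 to -34 relative to the start base: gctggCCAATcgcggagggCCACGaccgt
CALR, plus strand of chr19, from -225 to -207 relative to the start base: ccacgCGTGGtcgaccatcATTGGtcggt

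The 422 regions held boundaries of 549 genes, of which 431 (78.5%) were protein coding and 118 (21.5%) were lncRNA genes. These were 2.15% of the 20037 annotated protein coding genes and 0.645% of the 18303 annotated lncRNA genes. No gene had boundaries in more than 1 listed region. Boundaries of protein coding genes alone were found in 308 regions (73.0%), of lncRNA genes alone in 39 (9.24%) and of both in 75 (17.8%). The boundary genes were of ordinary size: the median protein coding gene with a boundary spanned 22311 bp, against 24115 bp for all annotated protein coding genes. The median lncRNA gene with a boundary spanned 7355 bp, against 9038 bp for all annotated lncRNA genes.

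Nearly every boundary that could be placed was a gene start. Strand was tabulated for 455 of the 549 genes (82.9%), and 441 of those (96.9%) had the start in the region. The end lay in the region for 26 genes (5.71% of the 455), and 12 of these lay in it whole. The share with a start was 349 of 358 (97.5%) for protein coding genes and 92 of 97 (94.8%) for lncRNA genes. Seen by region, 329 held starts and no placed end, 16 held a start and an end, and 8 held ends and no placed start. The other 69 held only genes without a tabulated strand. Such genes also lay in some of the regions with a placed boundary. A tabulated transcript start lay inside 339 boundary regions (80.3%) and inside 61 of the 416 other regions (14.7%), where it was no outer boundary of a gene in the annotation.

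The regions that held whole genes were mostly at histone genes, which are short and without introns. In all, 14 genes lay whole in 12 regions, among them H2AC20, H2AC21, H2AC6, H1-4, H2AC7, H2BC7, H4C5, H1-3 and H2AC12. Outside the histone family MRPS34, a mitochondrial ribosomal protein gene, also lay whole in its region. A further 14 genes had their end in the region without their start. CEBPB was one of them: its region on chromosome 20 (chr20:50190838-50193176, in the deposited coordinates) began inside the gene, passed its end and ran over the start of the antisense lncRNA CEBPB-AS1.

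Boundaries of several genes shared 121 regions (28.7%): 115 regions (27.3%) had 2 genes and 6 (1.42%) had 3. The regions with at least 2 tabulated starts numbered 91 (21.6%). In 55 of those 91 (60.4%) starts on opposite strands pointed away from each other within 1000 bp, the arrangement of a bidirectional promoter. Genes without a tabulated strand could not enter these counts, so 91 and 55 are minimum numbers. A coding gene was paired with a lncRNA gene in 36 of the 55 (65.5%) and with another coding gene in 19 (34.5%), and 13 pairs (23.6%) included a lncRNA with the -DT symbol given to divergent transcripts. Opposite starts whose genes overlapped at their 5′ ends were found in 26 regions (6.16%), and several starts on the same strand in 9 (2.13%). The end of a gene next to the start of another was found in 6 regions (1.42%), and no region held placed ends of genes from both strands.

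Regions with divergent pairs hold both starts by definition, so some coverage upstream of each start is set by how they were chosen. Over the 113 starts in those 55 regions the region's centre lay at a median of -95 bp, that is upstream, with 50 (44.2%) downstream. A median of 870 bp was covered upstream of such a start and 663 bp downstream, where the upstream side of one start holds the body of its partner.

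Where a region held a single gene, it lay mainly on the gene's side of the start. In the 234 regions with a single gene and its start, the region's centre lay a median of 300.5 bp downstream of the start (quartiles 65.25 and 434.625 bp), and downstream in 189 of them (80.8%). A median of 321.5 bp was covered upstream of the start and 882.5 bp downstream. The start lay within 100 bp of the region's upstream edge in 82 regions (35%) and within 100 bp of its downstream edge in 2 (0.855%). The 25 single lncRNA starts had a median of 220.5 bp, against 313.5 bp for the 209 single protein coding starts.

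**Figure D1:**
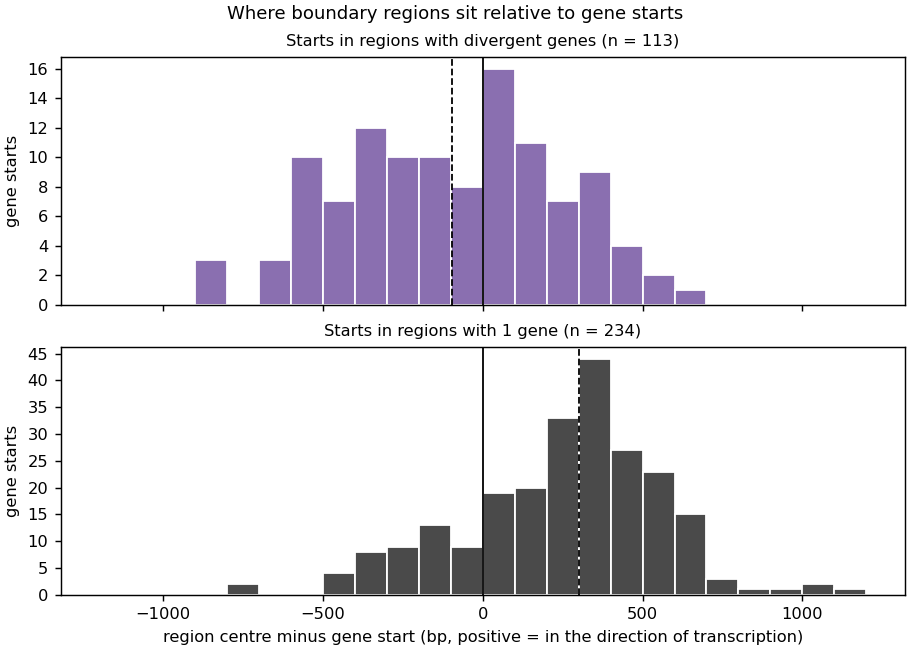
Position of the region's centre relative to the gene start, in bp with downstream positive, for divergent starts above and starts in regions with 1 gene under them; bars count gene starts, the solid line is the start and the dashed line the median. The 113 divergent starts have their median at -95 bp and the 234 single starts at 300.5 bp.

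The rule's edge fell in the same place. Of the 416 other regions, 123 (29.6%) lay within 100 bp of a gene boundary, and 98 of those lay inside a gene next to its start. The regions of PI4K2B, ESYT1 and LOC105370680 were the closest inside the rule. In the authors' deposited table PI4K2B, a phosphatidylinositol 4-kinase gene, had -0.74 for KMS-11, -0.57 for KMS-12 and -0.26 for RPMI8226. ESYT1, an endoplasmic reticulum membrane tether gene, was at -0.62, -0.68 and -0.08 in the authors' deposited table. LOC105370680, a lncRNA gene, was at -1.01, -0.46 and -0.88 in the authors' deposited table. Among the closest outside were regions 1 bp from PTMS and 2 bp from TUBA1B. The PTMS region, at the parathymosin gene, was at -0.86, -1.03 and -0.29 in the authors' deposited table. The region at TUBA1B, an alpha-tubulin gene, was at -1.15, -0.89 and -0.0019 in the authors' deposited table. The values on either side of the rule's edge thus overlapped.

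Boundary regions were wider than the rest of the list. Their median width was 1350 bp (quartiles 975.5 and 1675.75 bp, range 333 to 3485 bp), against 1008.5 bp for the other regions (quartiles 747 and 1403.75 bp, range 334 to 3025 bp), a difference of 341.5 bp. Regions with several genes had a median of 1528 bp and those with 1 gene 1297 bp. Regions with divergent starts had a median of 1551 bp and those with a single start 1241 bp. Regions with lncRNA boundaries alone had a median of 1363 bp and those with protein coding boundaries alone 1305 bp. A wider region has more bases in which a boundary can fall, so these widths are partly set by the rule and were not tested. The widest were those of CDK13-DT and CDK13, a transcription-associated kinase gene, with 3485 bp, of IRF2BPL and LOC107984638 with 3461 bp and of the histone genes H2BC21, H2AC20 and H2AC21 with 3459 bp. The narrowest were at NHEJ1, a DNA end-joining gene, with 333 bp, NT5M with 480 bp and DNAJC28 with 483 bp.

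The middle of the fold changes was nearly the same with and without a gene boundary. In the authors' deposited table the boundary regions had a median of -0.66 for KMS-11, -0.66 for KMS-12 and -0.57 for RPMI8226, against -0.67, -0.72 and -0.56 in the other regions. Read as JQ1 over DMSO, on a log2 scale, the boundary medians stand for 36.8%, 36.6% and 32.4% less signal. The difference of medians, boundary minus other, was 0.0129 for KMS-11, 0.0657 for KMS-12 and -0.00586 for RPMI8226 in the authors' deposited table, with a mean of 0.0243 ± 0.0371 (SD, n = 3 lines). An exact two-sided sign-flip permutation test over the 3 lines gave p = 0.5 for this mean difference of 0.0243, and 0.75 after Benjamini-Hochberg adjustment over 6 such comparisons. With 3 lines this exact test cannot go below p = 0.25, so the design could not have reached 0.05.

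The lines differed in how many boundary regions lay below -0.5. In the authors' deposited table these were 361 of 422 (85.5%) for KMS-11, 315 (74.6%) for KMS-12 and 272 (64.5%) for RPMI8226, and over all 838 regions the shares were 83.4%, 77.7% and 64.3%. Values below -0.5 in all 3 lines were found in 104 boundary regions (24.6%, exact 95% interval 20.6 to 29.04%), against 109 of the other regions (26.2%, interval 22.04 to 30.7%) and 25.4% of the whole list. These intervals treat regions as independent draws and hold no error between samples. KMS-11 and KMS-12 alone passed in 150 boundary regions (35.5%), KMS-11 and RPMI8226 alone in 107 (25.4%) and KMS-12 and RPMI8226 alone in 61 (14.5%). In the other regions these pairs made up 35.8%, 19.2% and 18.8%. The lowest of the 3 values was that of KMS-11 in 153 boundary regions (36.3%), that of KMS-12 in 171 (40.5%) and that of RPMI8226 in 98 (23.2%). Over the whole list these shares were 33.8%, 44.6% and 21.6%, close to those of the boundary regions.

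**Figure D2:**
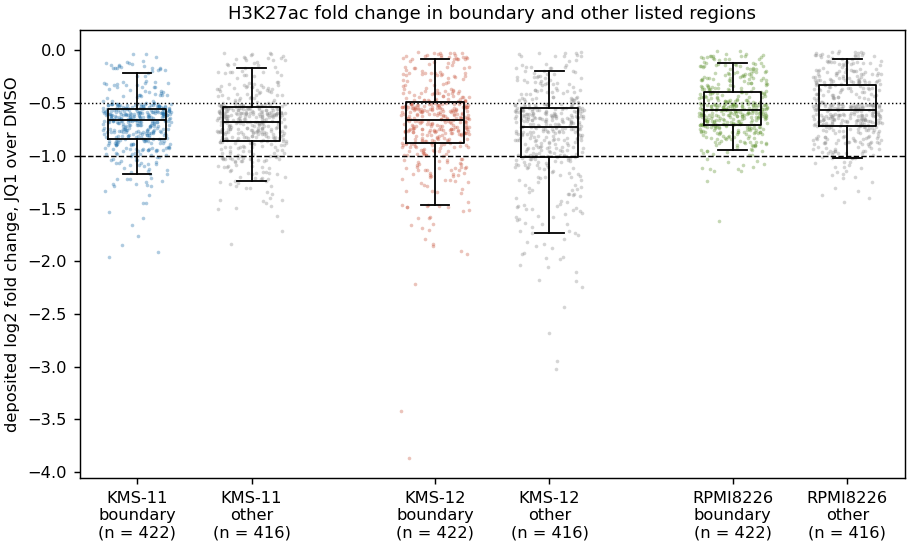
Log2 fold change of each region (vertical axis, JQ1 over DMSO as deposited) in the 3 lines, for boundary regions and, beside them, other regions; points are regions, boxes the quartiles and median, whiskers the 5th and 95th percentiles, and the horizontal lines mark -0.5 and -1. The medians are -0.66 and -0.67 in KMS-11, -0.66 and -0.72 in KMS-12 and -0.57 and -0.56 in RPMI8226, boundary regions first.

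The largest reductions were less frequent among boundary regions in each line, a difference looked at after the values had been seen. In the authors' deposited table a value below -1 was found in 47 boundary regions (11.1%) in KMS-11, against 66 other regions (15.9%), where the whole list had 13.5%. In KMS-12 these were 71 boundary regions (16.8%) against 107 other regions (25.7%), with 21.2% in the whole list. In RPMI8226 they were 13 (3.08%) against 24 (5.77%), with 4.42% in the whole list. The difference averaged -5.44 percentage points (SD 3.16, n = 3 lines) and had the same sign in 3 of 3 lines. The exact sign-flip permutation test of this difference of -5.44 points gave p = 0.25, the smallest 3 lines allow.

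Values below -1 in at least 2 lines were found in 15 boundary regions (3.55%, exact 95% interval 2.00 to 5.79%) and in 47 other regions (11.3%, interval 8.42 to 14.7%), with 7.4% in the whole list. No boundary region was below -1 in all 3 lines, which allows a share of up to 0.711% by the limit of 3 counts and 0.870% by the exact interval, against 5 other regions (1.2%) and 0.597% of the whole list. The other regions within 1000 bp of a boundary lay in between in 2 of the 3 lines: a value below -1 was found in 14.2% of them for KMS-11, 20.7% for KMS-12 and 6.47% for RPMI8226. Of those more than 1000 bp away it was found in 17.9%, 32.1% and 4.89%. Widths moved with this split, since boundary regions were the wider ones, and the part of width in it was not tested.

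**Figure D3:**
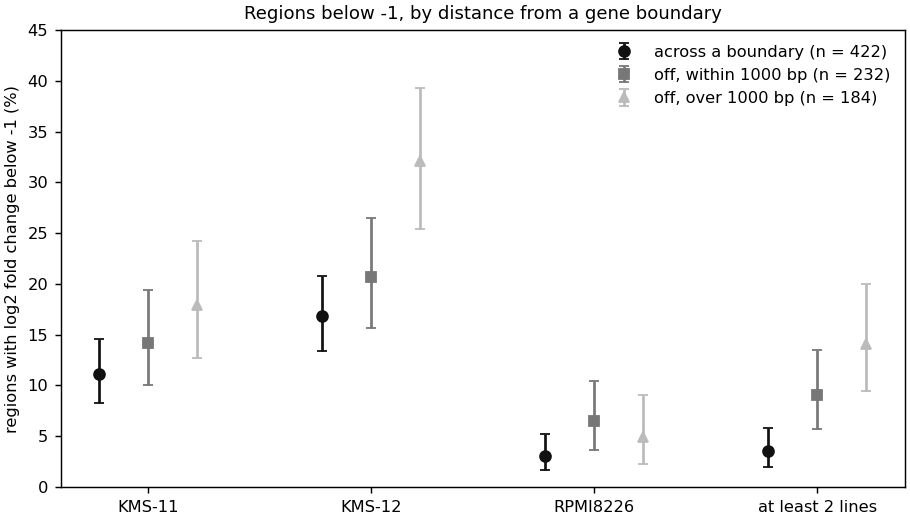
Percent of regions with a log2 fold change below -1 (vertical axis, from 0) by line and in at least 2 lines, for boundary regions, other regions within 1000 bp of a boundary and other regions farther away; error bars are exact 95% binomial intervals. In KMS-12 the shares are 16.8%, 20.7% and 32.1%.

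The 3 fold changes of a boundary region varied largely apart from each other. In the authors' deposited table Spearman's rho over the 422 regions was 0.02 between KMS-11 and KMS-12, -0.10 between KMS-11 and RPMI8226 and -0.34 between KMS-12 and RPMI8226. A list that asks for at least 2 of 3 values below -0.5 ties the values to each other, so these coefficients describe the list and not the lines. Width went weakly with the fold change, with rho of -0.11 for KMS-11, -0.15 for KMS-12 and 0.08 for RPMI8226 in the authors' deposited table.

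The lowest boundary regions by the mean of the 3 lines lay at TRIB3 and at CEBPB-AS1 with CEBPB, both on chromosome 20 and both lowest in KMS-12. TRIB3 encodes a pseudokinase induced by ATF4 during amino acid and endoplasmic reticulum stress. Its region (chr20:379892-381875) had -1.53 for KMS-11, -3.42 for KMS-12 and -0.97 for RPMI8226 in the authors' deposited table, which, on the same reading, stand for 65.3%, 90.6% and 49.1% less signal. CEBPB encodes a C/EBP transcription factor that pairs with ATF4. Its region was at -1.07, -3.86 and -0.37 in the authors' deposited table, the KMS-12 value being the lowest of any boundary region in any line. The third was that of RGS16, a regulator of G protein signalling, with -1.91, -1.48 and -0.90 in the authors' deposited table.

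The lncRNA gene LOC124903862 on chromosome 1 had -1.59 for KMS-11, -2.22 for KMS-12 and -0.42 for RPMI8226 in the authors' deposited table. ACTG1, which encodes a cytoskeletal actin, was at -1.96, -1.46 and -0.73 in the authors' deposited table, and its KMS-11 value was the lowest of the boundary regions in that line. BHLHA15 encodes MIST1, a factor of secretory cells including plasma cells, and was at -1.65, -0.76 and -1.62 in the authors' deposited table. Its RPMI8226 value was the lowest of the boundary regions in that line. TBL1X, the gene of a corepressor complex subunit, was at -1.26, -1.66 and -0.68 in the authors' deposited table. SYTL1, the gene of a synaptotagmin-like protein of vesicle traffic, was at -0.65, -1.84 and -1.05 in the authors' deposited table.

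MARVELD1, a membrane protein gene, had -0.84 for KMS-11, -1.90 for KMS-12 and -0.59 for RPMI8226 in the authors' deposited table. HLCS-AS1, a lncRNA antisense to the holocarboxylase synthetase gene, was at -0.64, -1.85 and -0.79 in the authors' deposited table. CITED2, the gene of a protein that binds the acetyltransferases CBP and p300, was at -1.22, -1.59 and -0.40 in the authors' deposited table. The histone genes H2BC12 and H2AC12 shared a region with -1.76, -0.41 and -0.90 in the authors' deposited table. In 8 of these 12 regions the KMS-12 value was the lowest of the 3, and in the other 4, at RGS16, ACTG1, BHLHA15 and H2BC12 with H2AC12, that of KMS-11. KMS-12 was the lowest line in 40.5% of all boundary regions. It also had the most values below -1, so picking regions by a low mean favours it.

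**Figure D4:**
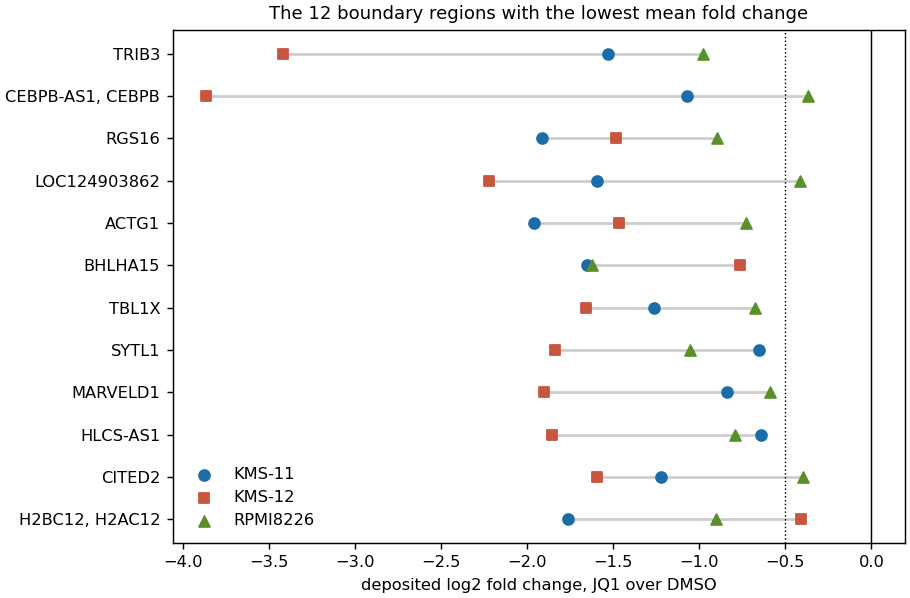
Log2 fold change (horizontal axis, JQ1 over DMSO as deposited) of the 12 boundary regions with the lowest mean, 1 row per region and 1 point per line. KMS-12 reaches -3.42 at TRIB3 and -3.86 at CEBPB-AS1 with CEBPB, and no RPMI8226 value lies below the -1.62 at BHLHA15.

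Each line had further regions among its 4 lowest. In KMS-12, HPDL had -1.93 in the authors' deposited table, against -0.52 in KMS-11 and -0.44 in RPMI8226. In RPMI8226, LDHA, the gene of a lactate dehydrogenase subunit of glycolysis, had -1.14 in the authors' deposited table, against -0.66 in KMS-11 and -0.45 in KMS-12. RAET1E-AS1 had -1.23 in RPMI8226 in the authors' deposited table, against -0.32 in KMS-11 and -0.67 in KMS-12. TBC1D12 had -1.14 in RPMI8226 in the authors' deposited table, with -0.62 in KMS-11 and -0.04 in KMS-12. In KMS-11 the region of H3C4, H2AC7 and H2BC7 had -1.85 in the authors' deposited table, against -0.18 in KMS-12 and -0.87 in RPMI8226.

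At the upper end, the mean of the 3 lines reached -0.38 at CBFB, the gene of a core-binding factor subunit, in the authors' deposited table. The next were ARGLU1 and PPP3R1 with PPP3R1-AS1, each with a mean of -0.39 in the authors' deposited table, and ACY1 with -0.40. PPP3R1 encodes the regulatory subunit of calcineurin and ACY1 an aminoacylase.

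The class of gene at the boundary went with small differences. Regions with lncRNA boundaries alone had medians of -0.71 for KMS-11, -0.76 for KMS-12 and -0.52 for RPMI8226 in the authors' deposited table, against -0.67, -0.64 and -0.58 where the boundaries were of protein coding genes alone. The mean difference was -0.0354 ± 0.0898 (SD, n = 3 lines; exact sign-flip permutation p = 0.75, adjusted 0.75). Regions with several genes were at medians of -0.63, -0.64 and -0.59 in the authors' deposited table, against -0.67, -0.67 and -0.56 with 1 gene, a mean difference of 0.0127 ± 0.0369 (SD, n = 3; exact permutation p = 0.75, adjusted 0.75). Regions with divergent starts were at medians of -0.62, -0.64 and -0.60 in the authors' deposited table, against -0.67, -0.66 and -0.58 with a single start, a mean difference of 0.0170 ± 0.0328 (SD, n = 3; exact permutation p = 0.5, adjusted 0.75).

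Gene starts and gene ends could be set against each other only unevenly. There were 339 regions with starts and no placed end lacking its own start, against 14 regions with such an end. The mean difference, starts minus ends, was 0.0581 ± 0.118 in the authors' deposited table (SD, n = 3 lines; exact permutation p = 0.5, adjusted 0.75). Regions of at least the median width differed from narrower ones by -0.0140 ± 0.0640 in the authors' deposited table (SD, n = 3; exact permutation p = 0.75, adjusted 0.75). In each of these comparisons the SD between lines was larger than the mean difference, and 3 lines could not have given a p under 0.25.

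Among the 55 divergent promoters the histone pair H3C4 and H2BC7, whose starts are 223 bp apart, was lowest by the mean. Outside the histone genes, C19orf73 and PPFIA3 had -1.06 for KMS-11, -1.26 for KMS-12 and -0.45 for RPMI8226 in the authors' deposited table, with starts 401 bp apart. NRSN2-AS1 and SOX12, the gene of a SOX transcription factor, were at -1.22, -1.14 and -0.31 in the authors' deposited table, with starts 300 bp apart. CCPG1, the gene of a receptor for autophagy of the endoplasmic reticulum, and PIERCE2 were at -0.72, -1.19 and -0.60 in the authors' deposited table. LOC105372505 and NOP56, the gene of a core protein of box C/D small nucleolar ribonucleoproteins, were at -0.84, -1.03 and -0.55 in the authors' deposited table. UGDH, which makes UDP-glucuronate, and UGDH-AS1 were at -0.76, -1.25 and -0.40 in the authors' deposited table.

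Boundaries of 3 genes fell in 6 regions. At NME3, MRPS34 and EME2 the values were -0.69, -0.59 and -0.67 in the authors' deposited table, for KMS-11, KMS-12 and RPMI8226. At CHD1, the gene of a chromatin remodeller, with CHD1-DT and LOC100289230 they were -0.63, -0.57 and -0.70 in the authors' deposited table. At DCST1-AS1, EFNA4-EFNA3 and the ephrin gene EFNA4 they were -0.63, -0.61 and -0.60 in the authors' deposited table. These 3 regions lay below -0.5 in all lines, with values close to each other. Values below -0.5 in all lines were found in 24.6% of all boundary regions and 22.3% of those with several genes. TTC36-AS1, TTC36 and TMEM25 were at -0.15, -0.64 and -0.57 in the authors' deposited table, and the other 2 regions were those of the histone genes.

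The lowest regions with lncRNA boundaries alone, after LOC124903862 and HLCS-AS1, began with LOC102724467, with -0.84 for KMS-11, -1.68 for KMS-12 and -0.47 for RPMI8226 in the authors' deposited table. LOC107984948 followed with -0.95, -1.79 and -0.13 in the authors' deposited table. PDE4D-AS1 was at -0.93, -0.76 and -0.79 in the authors' deposited table. PPP1R14B-AS1 was at -0.71, -1.51 and -0.24 in the authors' deposited table. In 5 of these 6 lncRNA regions KMS-12 was the lowest line, and at PDE4D-AS1 it was KMS-11. KMS-12 was lowest in 46.2% of all regions with lncRNA boundaries alone, and picking by a low mean favours it here too. The 22 regions with a -DT transcript had medians of -0.63, -0.62 and -0.52 in the authors' deposited table, and 5 of the 22 were below -0.5 in all lines, near the 24.6% of all boundary regions. The 39 regions with an -AS transcript had -0.64, -0.66 and -0.55, with 9 of the 39 below -0.5 in all lines, likewise near 24.6%, in the authors' deposited table.

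Genes of the amino acid response are induced by ATF4 when amino acids run short. Of the 40 considered, 12 had a boundary in a listed region, where 2.15% of all annotated protein coding genes had one. This list was chosen with earlier results of these data known. In the authors' deposited table those 12 regions had medians of -0.85 for KMS-11, -1.22 for KMS-12 and -0.48 for RPMI8226, against -0.66, -0.66 and -0.57 over all 422 boundary regions. KMS-12 was the lowest line in 9 of the 12, where it was in 40.5% of all boundary regions. In KMS-12 8 of the 12 were below -1, where 16.8% of all boundary regions and 21.2% of the whole list were. Values below -0.5 in all 3 lines were found at 3 of the 12, TRIB3, DDIT3 and ATF4, about the 24.6% of all boundary regions. After TRIB3 and CEBPB came SHMT2, the mitochondrial serine hydroxymethyltransferase gene, with -0.91, -1.59 and -0.41 in the authors' deposited table. DDIT3, the gene of the transcription factor CHOP, was at -0.78, -1.48 and -0.63 in the authors' deposited table. ATF4 itself was at -0.82, -0.58 and -0.65 in the authors' deposited table. CHAC1, a glutathione-degrading enzyme gene, was at -0.59, -1.32 and -0.04 in the authors' deposited table. PYCR1, of proline synthesis, was at -0.73, -1.11 and -0.07 in the authors' deposited table. The lowest values of this group thus stood in KMS-12. No value of it in RPMI8226 lay below -1, near the 3.08% of all boundary regions and 4.42% of the whole list that did.

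Cytosolic aminoacyl-tRNA synthetases load amino acids onto tRNA. Of the 23 genes 3 had a boundary in the list, where 2.15% of all annotated protein coding genes had one. IARS1, the isoleucine enzyme, had -0.78 for KMS-11, -1.65 for KMS-12 and -0.50 for RPMI8226 in the authors' deposited table. WARS1 and AARS1 had -0.89 and -0.88 in KMS-12 in the authors' deposited table. None of the 3 was below -0.5 in RPMI8226, where 64.5% of all boundary regions and 64.3% of the whole list were. The growth control list had 2 of its 24 genes, against the same 2.15%. They were SESN2, a leucine-sensing regulator of mTORC1 that is also in the amino acid list, and PIK3R1. SESN2 was at -0.88, -1.52 and -0.47 in the authors' deposited table. PIK3R1, the gene of a regulatory subunit of PI3 kinase, was at -0.57, -1.10 and -0.28 in the authors' deposited table.

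Of 47 genes of endoplasmic reticulum folding, translocation and degradation 12 had a boundary in the list, against 2.15% of all annotated protein coding genes. Their regions had medians of -0.85 for KMS-11, -0.54 for KMS-12 and -0.62 for RPMI8226 in the authors' deposited table, and 6 of the 12 were below -0.5 in all lines, where 24.6% of all boundary regions and 25.4% of the whole list were. In RPMI8226 all 12 were below -0.5, between -0.99 and -0.50, where 64.5% of all boundary regions and 64.3% of the whole list were. The listing rule forces this where the KMS-12 value was not below -0.5, as at P4HB and SEC61G. HYOU1, a chaperone gene, was at -1.13, -0.90 and -0.64 in the authors' deposited table. P4HB, a protein disulphide isomerase gene, was at -0.95, -0.47 and -0.99 in the authors' deposited table. EDEM3, of glycoprotein degradation, was at -0.88, -0.56 and -0.90 in the authors' deposited table. XBP1, the gene of a transcription factor of the unfolded protein response and of plasma cells, was at -1.08, -0.57 and -0.55 in the authors' deposited table. SEC61G, a translocon subunit gene, had -1.21 in KMS-11 and -0.05 in KMS-12 in the authors' deposited table.

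Regions at histone genes differed between the lines. Boundaries of 16 of 96 histone genes fell in 10 regions, where 2.15% of all annotated protein coding genes had a boundary in the list. These 10 regions had medians of -1.21 for KMS-11, -0.31 for KMS-12 and -0.68 for RPMI8226 in the authors' deposited table. All 10 lay below -0.5 in KMS-11, near the 85.5% of all boundary regions, and 6 of the 10 lay below -1 there, where 11.1% of all boundary regions did. In KMS-12 3 of the 10 lay below -0.5, where 74.6% of all boundary regions did. By the listing rule, those not below -0.5 in KMS-12 had to be below it in KMS-11, so these counts are tied. None of the 10 was below -0.5 in all lines, where 24.6% of all boundary regions were. The region of H2BC4 and H2AC6 was at -1.28, -0.14 and -0.94 in the authors' deposited table. H1-4, a linker histone gene, was at -1.26, -0.23 and -0.55 in the authors' deposited table. Of the replication-independent genes, H3-3A was at -0.79, -0.88 and -0.11 in the authors' deposited table. H3-3B, which encodes the same H3.3 histone, was at -0.64, -0.06 and -0.71 in the authors' deposited table. Of the 10 regions, 7 lie in the histone gene cluster on chromosome 6 and thus share a chromosomal neighbourhood.

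**Figure D5:**
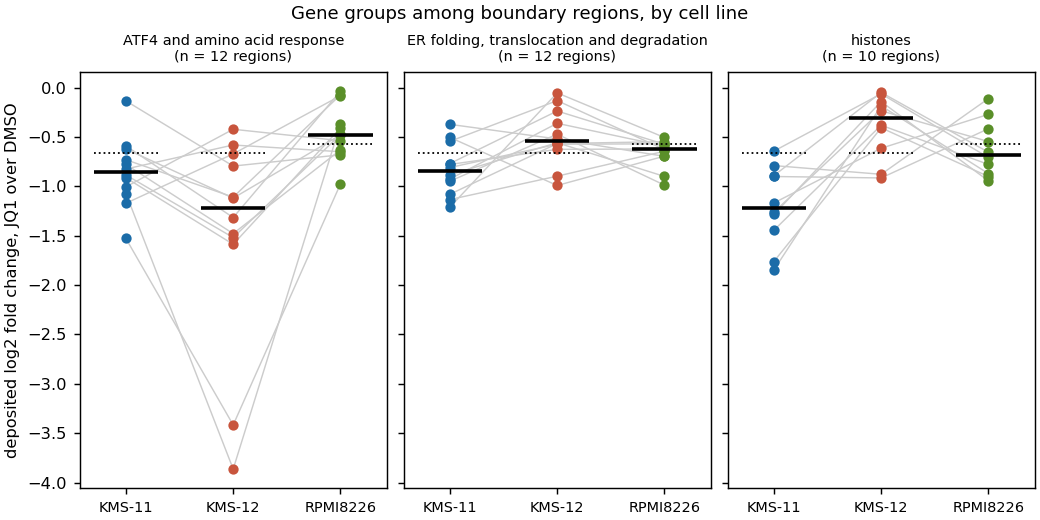
Log2 fold change (JQ1 over DMSO as deposited) of the boundary regions in gene groups, by line; points are regions, grey lines join the values of 1 region, solid bars are group medians and dotted lines the medians of all 422 boundary regions. The amino acid group has its lowest median in KMS-12 (-1.22) and the histone group in KMS-11 (-1.21), where all boundary regions have -0.66 in both lines.

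The groups that follow had 9 or fewer regions each. Beside their member counts, 2.15% of all annotated protein coding genes and 0.645% of all annotated lncRNA genes had a boundary in the list. Actin, tubulin and related genes had 4 of 18 members, and besides ACTG1 the gene CFL1, of the actin-severing protein cofilin, had -0.75 for KMS-11, -0.71 for KMS-12 and -1.03 for RPMI8226 in the authors' deposited table. Translation factors had 5 of 49, of which EIF2A was lowest with -1.12, -0.39 and -0.72, and EEF2 was below -0.5 in all lines, in the authors' deposited table. Cytosolic ribosomal proteins had 6 of 88, with medians of -0.62, -0.69 and -0.60 in the authors' deposited table. Splicing and RNA-binding proteins had 5 of 67, with -0.76, -0.52 and -0.52 in the authors' deposited table. Host genes of small nucleolar RNAs had 3 of 32, and SNHG26 was at -0.74, -0.91 and -0.81 in the authors' deposited table. The plasma cell list had 2 of 33, XBP1 and the kinase gene PIM3, and PIM3 was at -0.67, -1.35 and -0.56 in the authors' deposited table.

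Zinc finger genes with a ZNF symbol had 9 of 512, near the 2.15% of all annotated protein coding genes. The 9 regions had medians of -0.42 for KMS-11, -0.60 for KMS-12 and -0.62 for RPMI8226 in the authors' deposited table. Of the 9, 3 were below -0.5 in KMS-11, where 83.4% of the whole list was, and 8 in RPMI8226, where 64.3% was. By the listing rule, those not below -0.5 in KMS-11 had to be below it in RPMI8226, so the counts are tied. Solute carriers had 7 of 347, likewise near 2.15%, with medians of -0.76, -0.67 and -0.59 in the authors' deposited table. The monocarboxylate transporter gene SLC16A7 was the lowest of them with -0.70, -1.49 and -0.69 in the authors' deposited table. Glycolysis had LDHA alone of 23 genes. No boundary of the 31 transcription elongation and BET genes, the 13 genes of the MYC network or the 34 proteasome genes fell in a listed region, where 2.15% of all annotated protein coding genes had one. Counts of 0 in lists this short are near that share.

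The DNA at these starts was rich in GC and CpG. The 521 tabulated starts inside boundary regions had a median GC share of 70% over their 300 bases, against 58.7% over all 35116 tabulated starts. The ratio of observed to expected CpG had a median of 0.890 there, against 0.579 over all starts. The 104 lncRNA starts among them had 0.897, against 0.286 for all lncRNA starts, and the 417 protein coding starts had 0.890, against 0.737. The 82 tabulated starts inside other listed regions had a median ratio of 0.886, close to that of the boundary starts. GGGCGG, the letters of a GC box on either strand, was found at 81% of the boundary starts, 76.8% of the starts in other listed regions and 45% of all starts. Among protein coding starts it was found at 82% in boundary regions and 56.3% in all. TATAAA was found at 7.29%, against 11.5% of all starts, and CCAAT at 35.9%, against 34.6%. CACGTG, the E-box letters, was found at 11.9%, against 7.26%, and CCGGAAG, of ETS factors, at 11.9%, against 10.3%. Among protein coding starts alone CCGGAAG was found at 12.5% in boundary regions and 12.8% in all. TGACGTCA, of CREB and ATF factors, was found at 2.88%, against 1.85%, and the C/EBP letters TTNNGNAA at 18.6%, against 36.8%. Several starts of a gene can share bases, and GC-rich DNA changes how often any motif occurs, so these shares describe letters and not binding.

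The starts with TGATGNAA were not more frequent than elsewhere, at 14 of 521 (2.69%) against 3.62% of all starts, but their regions stood low in KMS-12. With the open base N fixed as C, TGATGCAA was found at 10 starts (1.92%), against 0.866% of all starts, a count made after the values had been seen. The 14 regions with TGATGNAA had medians of -0.82 for KMS-11, -1.13 for KMS-12 and -0.52 for RPMI8226 in the authors' deposited table, against -0.66, -0.64 and -0.59 in the 325 regions with a tabulated start and no such letters. KMS-12 was the lowest line in 9 of the 14, against 138 of the 339 regions with a tabulated start. In KMS-12 7 of the 14 (50%) were below -1, against 16.2% of the 339. Of the 14, 4 belong to the amino acid or synthetase lists, namely IARS1, AARS1, CHAC1 and SLC1A4. Of the 10 that do not, 5 were below -1 in KMS-12 in the authors' deposited table, LOC124903862, TBL1X, SYTL1, LOC102724467 and LOC107984948, and 5 were not, at H2AC21, LOC107986571, MISP3, HERPUD1 and PPP1R15B. Among the starts printed above, LOC124903862 and LOC102724467 hold the letters once on each strand. SLC1A4, a neutral amino acid transporter gene, was at -1.004, -0.42 and -0.54 in the authors' deposited table, so its lowest line was KMS-11. PPP1R15B, a phosphatase subunit gene of the integrated stress response, was at -0.03, -0.85 and -0.95 in the authors' deposited table.

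The ER stress element was found at 0.768% of the boundary starts, which is 4 of 521, against 27 starts or 0.0769% of all. The 4 count the element of SERP1 and EIF2A at both starts, and that of CALR lies outside its region. With 1 start per region it was found at 2 of 339 (0.59%). The region that SERP1, a translocon-associated protein gene, shares with EIF2A had -1.12 for KMS-11, -0.39 for KMS-12 and -0.72 for RPMI8226 in the authors' deposited table. CALR, the gene of the chaperone calreticulin, was at -0.77, -0.24 and -0.57 in the authors' deposited table. With XBP1, all 3 regions had their lowest value in KMS-11, which was the lowest line in 36.3% of all boundary regions. At SERP1 with EIF2A and at CALR the KMS-12 value did not pass the cut-off of the listing rule. Their KMS-11 and RPMI8226 values thus had to pass it, so this count is partly set by the rule.

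In 8 boundary genes a second listed region lay inside the gene away from its boundaries, which allows the 2 to be set side by side. The boundary region had the higher value in 7 of 8 pairs in KMS-11, in 6 of 8 in KMS-12 and in 2 of 8 in RPMI8226. The median difference, boundary minus inner, was 0.18 for KMS-11, 0.11 for KMS-12 and -0.27 for RPMI8226 in the authors' deposited table. At NR2F6, a nuclear receptor gene, the boundary region had -0.60 in KMS-12 and the inner region -1.57 in the authors' deposited table. At H3-3A the boundary region had -0.11 in RPMI8226 and the inner region, which starts downstream of it, -1.11 in the authors' deposited table. At IER5L the boundary region, over the gene's end, had -0.93, -1.22 and -0.31, and the inner region -1.16, -1.93 and -0.56 in the authors' deposited table. The 2 regions of a gene come from the same samples, and no test was made over these 8 pairs.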

How the data were processed

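H3K27ac ChIP-seq of KMS-11, KMS-12 and RPMI8226 cells was made with 1 JQ1 and 1 DMSO sample per line. The authors' deposited table holds 838 regions with log2 fold changes for the 3 lines. The file writes neither the base nor the numerator. They were read as log2 of JQ1 over DMSO from the column names and from the tools in the submitters' processing notes, which name MACS2, DESeq2, hg38 and GRCh38.p13 without their roles. Read counts and replicate errors were not analysed here, so the depth behind a value is unknown. Column values were checked: all 838 regions are below 0 in each line, and the number of lines given for each equals the number of its values below -0.5.

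Regions were joined by position to the RefSeq gene table of GRCh38.p14, taking region ends as inclusive; patch releases of a build share chromosome coordinates. Strand came from the RefSeq promoter table (35116 starts). Classes were compared by the difference of medians within each line, with an exact two-sided sign-flip permutation test over the 3 lines (Python 3.11.15, pandas 2.3.3, numpy 2.4.6, scipy 1.17.1) and Benjamini-Hochberg adjustment over 6 comparisons. No test was made across regions, which share their samples. The code was tested on simulated data. Exact intervals are Clopper-Pearson at 95% and cover counting only. Each fold change already pairs the JQ1 and DMSO samples of a line.

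Named regions were the 12 lowest and 4 highest by the mean of the lines, the 4 lowest per line, those with 3 genes, the 8 lowest with divergent starts, the 6 lowest with lncRNA boundaries alone, the 3 widest and 3 narrowest, the 3 nearest to the rule on each side (1 of them is not reported here), and up to 4 lowest per gene list. Further genes named from the lists, the motif windows and the inner regions were chosen after their values were seen. The regions and the 19 gene lists were chosen with earlier results of these data known, so no list is independent evidence.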

Additional observations from a re-analysis of the deposited data

How the results depend on the processing

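The 422 regions became 114 when lncRNA boundaries alone counted and 654 when regions were widened by 1000 bp on each side; the other rules tried gave 345 to 545. Regions with at least 2 genes fell to 45 with protein coding genes alone, against 121. Asking for values below -1 in all 3 lines gave 0% of boundary and 1.2% of other regions, and in at least 2 lines 3.55% and 11.3%. Leaving out each line in turn gave, in mean log2 difference, 0.00352 to 0.0393 for boundary minus other regions, 0.0025 to 0.0348 for divergent minus single starts and 0.0173 to 0.126 for starts minus ends. For the share below -1 it gave -6.81 to -3.71 percentage points. The sign reversed without KMS-12 for lncRNA minus protein coding boundaries (-0.0822 to 0.00737) and for wide minus narrow regions (-0.0492 to 0.0133), and without KMS-11 for several genes minus 1 gene (-2.2e-04 to 0.0338). The cause was not tested. Each deposited value already sets the JQ1 sample of a line against its DMSO sample. The pairing is thus kept within each value, and no separate paired analysis was made. With 1 sample per line and treatment and unknown depth, no value of a single region has an error.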
